A study of Mus musculus with 16 samples.

Results

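The cytosolic ribosomal proteins are the protein subunits of the ribosome that translates messenger RNA outside the mitochondria. Their genes were chosen by symbol, as Rpl or Rps genes with a number and at most 1 further letter, plus Rplp0, Rplp1, Rplp2 and Rpsa, and each had to have a probe set of its own. The rule found 59 of the 19938 genes with such a probe set, 37 of the large and 22 of the small subunit. Where a gene had several probe sets, the one with the highest mean signal stood for it.

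Liver RNA of mice of strain 129 was hybridised to whole-transcript arrays, 4 arrays for each of 4 genotypes: Rassf1a-/- Sav1+/- (called the double genotype here), Rassf1a-/-, Sav1+/- and wild type. Rassf1a is a tumour suppressor that acts upstream of the Hippo kinases, and Sav1 encodes a scaffold of those kinases. The mice thus carried no Rassf1a, 1 copy of Sav1, or both changes at once, and wild-type mice carried neither. The sources used here give neither sex, age nor hour of collection. They do not say whether the 4 arrays of a genotype came from separate animals, and the p-values therefore rest on array-to-array spread, which may be technical.

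Ribosome production is one of the largest biosynthetic costs of a growing cell, and the liver, which secretes most plasma proteins, holds many ribosomes. Each subunit needs its proteins in fixed proportions, and surplus ones are degraded. Ribosomal protein mRNAs begin at a C followed by a run of pyrimidines, the 5′ terminal oligopyrimidine (TOP) tract, through which mTORC1 and Larp1 set their translation. An array measures the mRNA, not its translation.

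The start sites of 9 members are shown: Rps12, Rps21, Rpl26 and Rps13, which had the widest differences between double-genotype and Rassf1a-/- livers, Rps18 and Rpl27a as further examples of a tract, and Rpl4, Rpl39l and Rps4x, which departed from the other members. Rps21 has another listed start, not shown, without a tract. Sequences are from RefSeq (GRCm38.p6), 5′ to 3′ on the gene's strand, from 15 bases before the annotated start, and capitals mark a run of at least 7 bases of C or T that begins with C.
Rpl26 (chr11:68901551-68901580, plus): ctcgcggcaacttacagaaccggaagtcgc
Rps13 (chr7:116334176-116334205, minus): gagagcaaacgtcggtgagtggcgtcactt
Rps12 (chr10:23787195-23787224, minus): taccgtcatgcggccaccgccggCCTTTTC
Rps21 (chr2:180257364-180257393, plus): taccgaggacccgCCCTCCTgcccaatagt
Rps18 (chr17:33955651-33955680, minus): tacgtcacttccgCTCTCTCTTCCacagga
Rpl27a (chr7:109519180-109519209, plus): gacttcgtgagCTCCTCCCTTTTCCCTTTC
Rpl4 (chr9:64173372-64173401, plus): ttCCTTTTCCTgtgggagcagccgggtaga
Rpl39l (chr16:10170213-10170242, plus): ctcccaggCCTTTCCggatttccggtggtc
Rps4x (chrX:102189377-102189406, minus): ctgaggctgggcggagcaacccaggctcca

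A start was listed for 47 members, and those not matched were Rpl21, Rpl23a, Rpl29, Rpl30, Rpl36, Rpl7, Rpl8, Rplp1, Rps14, Rps20, Rps29 and Rps4l. Within 15 bases of a start, on the gene's strand, 22 of the 47 (46.8%) held a tract, against 16.4% of 27025 genes, 15.9% of mitochondrial ribosomal protein genes and 15.6% of proteasome genes. The letters CCGGAAG, the core that ETS factors recognise, lay on either strand of the 300-base promoter window of 38.3% of members, against 9.93% of all genes, 37.7% of mitochondrial ribosomal protein genes and 31.2% of proteasome genes. Their reverse complement, CTTCCGG, can share letters with a tract. TATAAA lay in the windows of 12.8% of members and 15.7% of all genes. A match describes the letters in the window only.

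The signals were the authors' log2 values, which put these genes among the brightest of the array. Member means over the 16 arrays had a median of 12.03, and 53 of the 59 reached 10. Rps2, a small subunit protein, was brightest at 13.59. A gene counted as measured if at least 4 arrays exceeded the 40th percentile of the array (7.16 to 7.44), and 57 members did. Rpl3l, a paralog of Rpl3 used in heart and skeletal muscle, was below it at 6.86. So was Rpl12, a large subunit protein, at 5.98, with no array of any genotype above 6.45. Signals of different probe sets are on different scales, so this order is of brightness and not of mRNA amount. The mouse genome holds many copies of ribosomal protein genes, and a probe set may read them too.

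Sav1 itself lay between 7.30 and 7.96 in double-genotype livers and 7.38 and 8.17 in Sav1+/- livers, below all Rassf1a-/- values (8.46 to 8.78) and wild-type values (8.37 to 8.61). Rassf1 lay between 7.48 and 7.71, 6.94 and 7.42, 6.99 and 8.14, and 7.21 and 7.59 in double-genotype, Rassf1a-/-, Sav1+/- and wild-type livers. Its probe set is annotated to the gene and not to the 1A form, and probe positions were not given. These values therefore do not check the Rassf1a label. Hepatocyte markers (Alb, Apoa1, Ttr, Trf and Hnf4a) averaged 13.37 to 13.59 on every array. High Y-linked signal (8.87 to 9.18, against 2.09 to 4.17 elsewhere) marked 5 arrays, which were double-genotype replicates 1 and 2, Rassf1a-/- replicate 2 and Sav1+/- replicates 3 and 4. No wild-type array had it. For the ribosomal protein genes, double-genotype replicate 2 and Sav1+/- replicate 2 stood low: the first held the lowest double-genotype value of 53 of the 57 measured members, the second the lowest Sav1+/- value of 49. Rassf1a-/- replicate 2 held the highest Rassf1a-/- value of 40.

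No single ribosomal protein gene passed the test in any of 8 comparisons, but the measured members lay mostly to one side of zero in 6 of them. The mean signal of the 57 was 11.55 ± 0.16 in double-genotype, 11.95 ± 0.09 in Rassf1a-/-, 11.75 ± 0.18 in Sav1+/- and 11.78 ± 0.05 in wild-type livers (log2, SD, n = 4 arrays each). For each array, the median difference of the members from their wild-type means was -0.14, -0.49, -0.15 and -0.18 in double-genotype livers, 0.10, 0.28, 0.16 and 0.14 in Rassf1a-/- livers, 0.11, -0.29, 0.03 and 0.00 in Sav1+/- livers and -0.04, 0.07, -0.05 and 0.04 in wild-type livers. All double-genotype arrays lay below all Rassf1a-/- and all wild-type arrays, and all Rassf1a-/- arrays lay above all wild-type arrays, while Sav1+/- arrays overlapped those of every other genotype. The highest genotype mean was that of Rassf1a-/- livers for 50 of 57 members and the lowest that of double-genotype livers for 49, with both true of 43. In bulk liver, fewer cells of a type and less RNA per cell cannot be told apart.

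**Figure D1:**
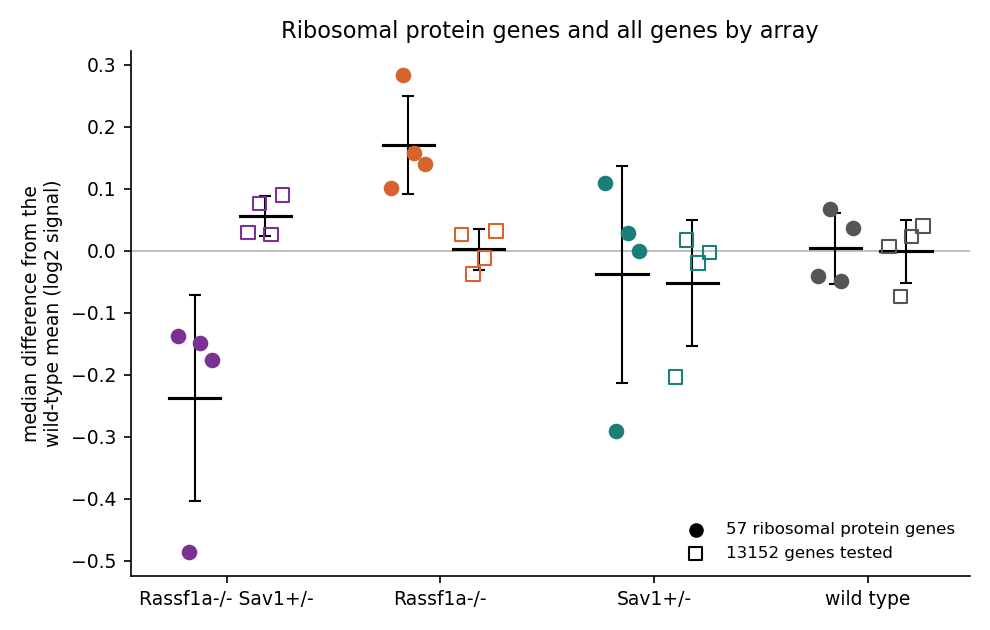
Median log2 difference from the wild-type mean on each array, for the 57 measured ribosomal protein genes (filled circles) and the 13152 genes tested (open squares), by genotype. Bars give mean and SD over 4 arrays. The filled circles sit lowest in double-genotype livers, at -0.49 to -0.14, and highest in Rassf1a-/- livers, at 0.10 to 0.28, while the squares stay near 0 except for Sav1+/- replicate 1 at -0.20.

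**Figure D2:**
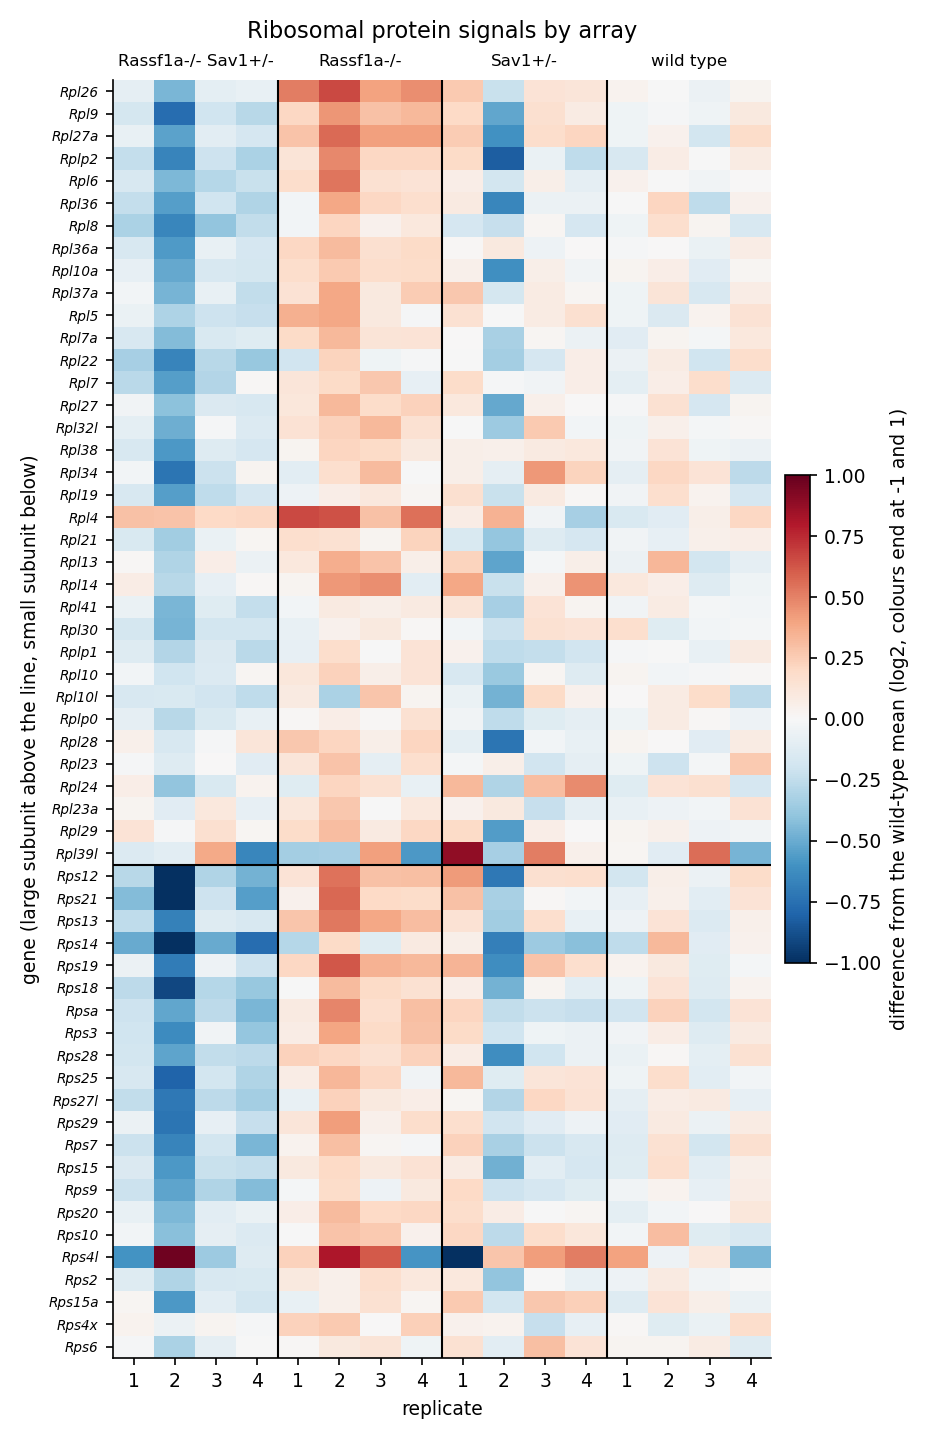
Log2 difference of each of the 57 measured members from its wild-type mean (colour) on each array (columns, replicates 1 to 4 of each genotype), large subunit above the line and small subunit below. Blue columns mark the double genotype, deepest in replicate 2, and Sav1+/- replicate 2 is blue beside 3 paler Sav1+/- arrays. Rpl4 is red in both genotypes without Rassf1a.

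The comparison of double-genotype with Rassf1a-/- livers asks what loss of 1 Sav1 copy goes with where Rassf1a is absent, and it held the widest differences. Of 57 members, 56 were lower, with a median of -0.40 on the log2 scale (1.32-fold), where 39.7% of the 13152 genes were lower and the median of all genes was 0.074. Values ran from -0.89 to 0.079. None was called by limma (Benjamini-Hochberg adjusted over 13152 genes, threshold 0.05), in a comparison where 1 gene, 0.0076% of those tested, was called at all. At an unadjusted p under 0.05, 40 members were lower and none higher (70.2% lower, against 8.22% of all genes). In 41 members (71.9%) all 4 double-genotype arrays lay below all 4 Rassf1a-/- arrays, against 5.96% of genes tested. limma with array weights called 34 members (59.6%, against 15% of all genes under that setting), and with a trended, robust variance 9 (15.8%, against 0.517%). Without the 2 low arrays named above, the median was -0.32 and 35 members were lower at an unadjusted p under 0.05. The remaining double-genotype arrays lay below all 4 Rassf1a-/- arrays in 41 members, against 6.39% of genes tested. Leaving out an array of the lower group cannot reduce such a count, so it is no check on the low arrays. Among the 530 other genes with a mean signal of at least 12, the median was -0.0057, against -0.38 for the 30 members as bright.

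Rpl26, a large subunit protein beside the mouth of the exit tunnel, had the smallest adjusted p of the members here. It had 11.02, 10.66, 11.01 and 11.04 in double-genotype livers, 11.63, 11.77, 11.52 and 11.57 in Rassf1a-/- livers, 11.37, 10.89, 11.25 and 11.23 in Sav1+/- livers and 11.15, 11.11, 11.06 and 11.14 in wild-type livers. Every Rassf1a-/- array stood above every other array. The difference between double-genotype and Rassf1a-/- livers was -0.69 (SE 0.13, limma adjusted p = 0.0644).

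Rps13, a small subunit protein, had 11.23, 10.81, 11.35 and 11.33 in double-genotype livers, 11.76, 12.01, 11.87 and 11.79 in Rassf1a-/- livers, 11.63, 11.13, 11.65 and 11.41 in Sav1+/- livers and 11.43, 11.62, 11.34 and 11.54 in wild-type livers. Its Rassf1a-/- arrays likewise lay above all the others, 0.68 above double-genotype livers (difference -0.68, SE 0.15, adjusted p = 0.0765). Rps12, a small subunit protein whose fly counterpart takes part in cell competition, showed the widest difference, -0.89 (SE 0.23, adjusted p = 0.0983). It had 11.23, 10.26, 11.21 and 11.04 in double-genotype livers, 11.65, 12.05, 11.80 and 11.81 in Rassf1a-/- livers, 11.94, 10.80, 11.67 and 11.68 in Sav1+/- livers and 11.33, 11.57, 11.45 and 11.69 in wild-type livers. Replicate 2 was the lowest array of both genotypes with 1 Sav1 copy, and the 4 double-genotype arrays lay below the wild-type ones. Rps21, also of the small subunit, had 10.46, 9.75, 10.68 and 10.34 in double-genotype livers, 10.93, 11.46, 11.09 and 11.07 in Rassf1a-/- livers, 11.18, 10.56, 10.90 and 10.86 in Sav1+/- livers and 10.81, 10.94, 10.78 and 11.03 in wild-type livers. It was -0.83 against Rassf1a-/- livers (SE 0.18, adjusted p = 0.0789) and again below every wild-type array.

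Another 7 members had an adjusted p under 0.1 in this comparison. Rpl6, Rpl8, Rpl9 and Rpl36a of the large subunit were at -0.53, -0.49, -0.67 and -0.46, and Rps3, Rps18 and Rpsa of the small subunit at -0.55, -0.63 and -0.62. Only Rpl39l was positive, at 0.079. It is a paralog of Rpl39 best known from the testis, and it had 7.73, 7.76, 8.25 and 7.21 in double-genotype livers, 7.52, 7.54, 8.28 and 7.29 in Rassf1a-/- livers, 8.75, 7.53, 8.38 and 7.92 in Sav1+/- livers and 7.89, 7.75, 8.43 and 7.40 in wild-type livers. These values lie close to the filter level, overlap between all genotypes, and took a difference of -0.0088 under quantile normalization.

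**Figure D3:**
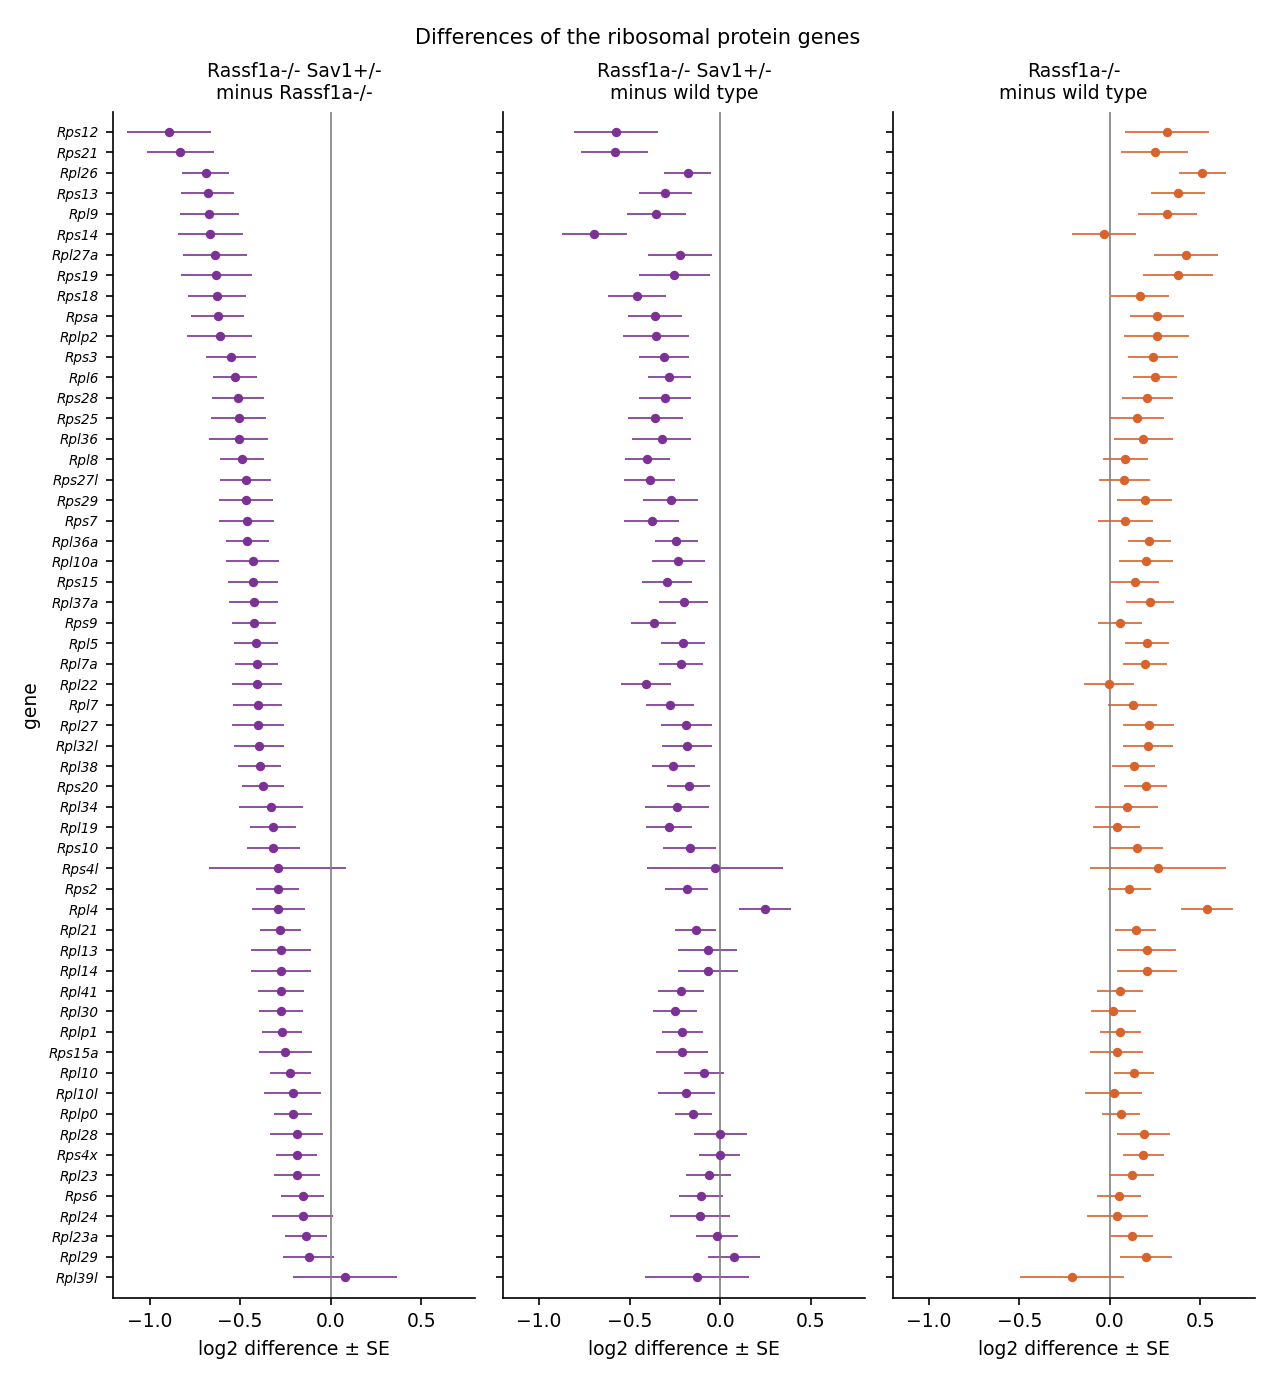
Log2 difference and SE of each of the 57 measured members in 3 comparisons, ordered by the difference between double-genotype and Rassf1a-/- livers. All but Rpl39l lie left of 0 in the first panel, all but Rpl4, Rpl28 and Rpl29 in the second, and 54 of 57 lie right of 0 in the third. The 3 panels share arrays in pairs.

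The differences lay in both subunits. The 22 small subunit members were all lower in double-genotype than in Rassf1a-/- livers with a median of -0.47 (18 at an unadjusted p under 0.05), and 34 of 35 measured large subunit members were lower with a median of -0.33 (22 at that level). The P stalk, which recruits elongation factors to the large subunit, had a median of -0.27. Its base, Rplp0, had 12.24, 12.06, 12.19 and 12.26 in double-genotype livers and 12.35, 12.41, 12.35 and 12.49 in Rassf1a-/- livers, a difference of -0.21 (adjusted p = 0.362). Rplp1 was at -0.27 (0.291) and Rplp2 at -0.61 (0.136), where Rplp2 had 9.89, 9.46, 9.92 and 9.81 in double-genotype livers and 10.25, 10.60, 10.33 and 10.33 in Rassf1a-/- livers. All 4 double-genotype arrays lay below all 4 Rassf1a-/- arrays for each of the 3, although the sizes differed.

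Against wild type, double-genotype livers had lower signals for 54 of 57 members, with a median of -0.22 (all genes 0.051, 41.3% of genes lower) and no member called (0.821% of genes called; smallest member adjusted p 0.0813). At an unadjusted p under 0.05, 18 members were lower (31.6%, against 6.44% of all genes) and none higher. In 25 (43.9%) the arrays did not overlap, against 4.49% of genes. The 18 became 8 and the median -0.14 without the 2 low arrays. The remaining double-genotype arrays then lay below all wild-type arrays in 25 members, against 5.09% of genes. Here too, leaving out a double-genotype array cannot reduce the count. With array weights limma called 3 members, Rps14, Rpl8 and Rps21 (5.26%, below the 9.36% of all genes under that setting).

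Rps14, a small subunit protein whose loss of 1 copy underlies the anaemia of the human 5q- syndrome, had the smallest p. It had 12.02, 11.51, 12.02 and 11.76 in double-genotype livers, 12.23, 12.71, 12.40 and 12.61 in Rassf1a-/- livers, 12.58, 11.84, 12.15 and 12.11 in Sav1+/- livers and 12.27, 12.84, 12.41 and 12.56 in wild-type livers. The double-genotype arrays lay below all Rassf1a-/- and wild-type arrays, at -0.69 against wild type (SE 0.18, adjusted p = 0.0813). Unlike most members, Rps14 was not above wild type in Rassf1a-/- livers, at -0.031. Its probe set leaves the copies of this gene elsewhere in the genome unresolved, as for the other members.

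Rpl8, which reaches towards the peptidyl transferase centre, had 11.23, 10.89, 11.15 and 11.30 in double-genotype livers, 11.52, 11.76, 11.59 and 11.65 in Rassf1a-/- livers, 11.38, 11.32, 11.56 and 11.38 in Sav1+/- livers and 11.50, 11.72, 11.58 and 11.39 in wild-type livers. It was at -0.40 against wild type (SE 0.12, adjusted p = 0.148), with every double-genotype array below every other array. Rps21 was at -0.58 (0.162), Rps9 at -0.37 (0.184) and Rpl22 at -0.41 (0.194). Rpl22, a large subunit protein with a role in lymphocyte development, had 9.62, 9.29, 9.67 and 9.57 in double-genotype livers, against 9.89, 10.03, 9.75 and 10.13 in wild-type livers, with no overlap. On the other side Rpl4 was at 0.25, Rpl29 at 0.076 and Rpl28 at 0.00, and Rpl28 took a negative sign once each array was centred on its median.

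In Rassf1a-/- livers against wild type the members lay the other way. Of 57, 54 were higher, with a median of 0.18 (all genes -0.012, 48.3% of genes higher), and none was called in a comparison that called 0.7% of genes. Only 4 members were higher at an unadjusted p under 0.05, a share of 7.02% that is close to the 6.33% of all genes. In 15 (26.3%) the arrays did not overlap, against 6.55% of genes. The median SE of a single member was 0.14.

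The 4 were Rpl4, Rpl26, Rpl27a and Rps13. Rpl4, which lines the exit tunnel, had 12.26, 12.25, 12.17 and 12.17 in double-genotype livers, 12.63, 12.60, 12.26 and 12.52 in Rassf1a-/- livers, 12.04, 12.31, 11.93 and 11.63 in Sav1+/- livers and 11.82, 11.85, 12.02 and 12.18 in wild-type livers. The Rassf1a-/- arrays lay above all wild-type arrays, at 0.53 (SE 0.14, adjusted p = 0.125), and the double-genotype arrays reached down to the top of the wild-type range. Rpl26 was at 0.51 (SE 0.13, adjusted p = 0.0914). Without the 2 low arrays the difference stayed at 0.51 and its limma adjusted p was 0.0192, under the threshold. Those arrays lie in neither group and enter through the shared variance. They were picked after seeing that these same genes were low on them, so the pass is not independent evidence. Rps13 was at 0.38 (0.367). Rpl27a, of the large subunit, had 12.16, 11.70, 12.13 and 12.06 in double-genotype livers, 12.51, 12.80, 12.64 and 12.64 in Rassf1a-/- livers, 12.48, 11.63, 12.40 and 12.44 in Sav1+/- livers and 12.19, 12.28, 12.05 and 12.41 in wild-type livers. Its difference between Rassf1a-/- and wild-type livers was 0.42 (adjusted p = 0.406), with no overlap.

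Sav1+/- livers did not stand apart from wild type in the members taken as a whole. Of 57, 23 were higher and 34 lower, with a median of -0.034 (all genes -0.023), none was called (0% of genes called), and none had an unadjusted p under 0.05. Rpl21 of the large subunit, at -0.21, was the single member without overlap, where 4.24% of genes lay wholly lower. Rps14 was at -0.35 (SE 0.18, adjusted p = 0.585), Rpl28 at -0.23, Rpl10 and Rplp1 at -0.16, and Rpl39l, Rpl24, Rpl14, Rps15a and Rps6 at 0.28, 0.20, 0.17, 0.15 and 0.12. The median was 0.051, with 34 members higher, when the 2 low arrays were left out.

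Double-genotype against Sav1+/- livers gave 50 of 57 members lower, a median of -0.24 (all genes 0.083) and no call (0.836% of genes called). At an unadjusted p under 0.05, 16 were lower (28.1%, against 4.07% of all genes). The arrays did not overlap for 7 members, Rpl5, Rpl8, Rpl36a, Rpl38, Rps9, Rps20 and Rps25, against 1.42% of genes. Rps25, a small subunit protein that some viral internal ribosome entry sites need, had 11.82, 11.19, 11.80 and 11.69 in double-genotype livers and 12.31, 11.86, 12.11 and 12.12 in Sav1+/- livers. Its difference of -0.47 (SE 0.15) had the smallest adjusted p, 0.145. The median of the members was -0.077 when the 5 arrays with high Y-linked signal were left out, which took 2 arrays from each of these genotypes, and no member then had an unadjusted p under 0.05.

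Averaged over both Rassf1a states, 1 Sav1 copy went with lower signals for 55 of 57 members (median -0.21, all genes 0.022), and 32 of them (56.1%, against 10.4% of genes) had an unadjusted p under 0.05. Without the 2 low arrays the median was -0.14 and the 32 became 21, in a fit with fewer arrays for every gene. None was called (0.0228% of genes called), with Rps14 nearest at -0.51 (SE 0.13, adjusted p = 0.110). This average joins unlike states, with a member median of -0.40 where Rassf1a was absent and -0.034 where it was present. Averaged over both Sav1 states, loss of Rassf1a gave 27 members higher and 30 lower (median -0.016, all genes 0.026) and no call, where 2.23% of genes were called. Rpl4 came closest, at 0.38 (SE 0.10, adjusted p = 0.0600), and passed in 6 of the other settings. The interaction, the Rassf1a difference with 1 Sav1 copy minus that with 2 copies, was negative for 56 of 57 members with a median of -0.35 (all genes 0.093). None passed (0% of genes called), and 19 (33.3%, against 3.63% of genes) had an unadjusted p under 0.05 and were negative, Rpl26 (-0.76, SE 0.18, adjusted p = 0.343) and Rps21 (-0.82, SE 0.26, 0.385) first. These comparisons share the arrays of Rassf1a-/-, double-genotype and wild-type livers, so their signs are not independent of each other.

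**Figure D4:**
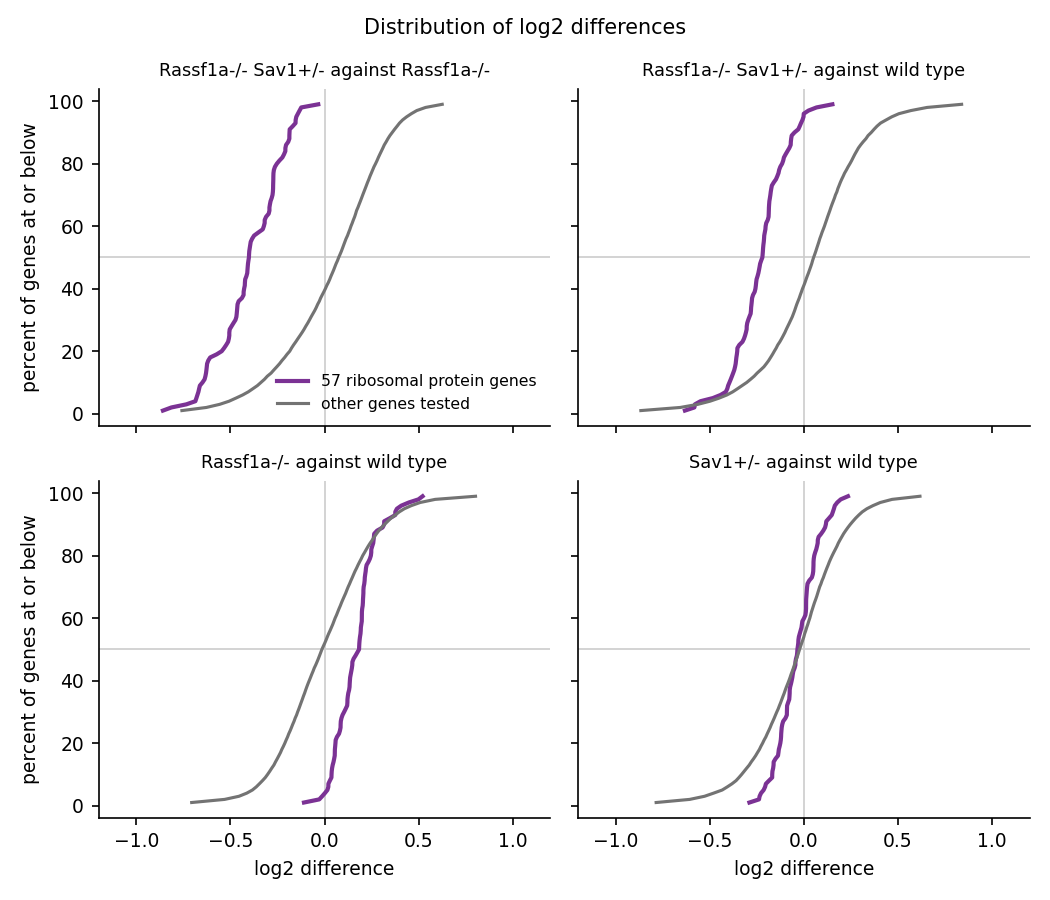
Percent of genes at or below each log2 difference, for the 57 measured ribosomal protein genes (purple) and the other genes tested (grey), in 4 comparisons. At the median the purple curve lies left of the grey in both double-genotype panels (-0.40 and -0.22) and right of it for Rassf1a-/- against wild type (0.18), where the curves meet near the 90th percentile. For Sav1+/- against wild type the medians lie close (-0.034 and -0.023) and the purple curve is steeper and crosses the grey.

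Rpsa, which is also a laminin receptor, had 11.63, 11.32, 11.57 and 11.38 in double-genotype livers, 11.93, 12.33, 12.01 and 12.14 in Rassf1a-/- livers, 12.05, 11.59, 11.63 and 11.61 in Sav1+/- livers and 11.65, 12.07, 11.66 and 11.98 in wild-type livers. Its double-genotype arrays lay below all Rassf1a-/- and wild-type arrays. Rpl5, which carries 5S rRNA and can hold Mdm2, had 11.57, 11.33, 11.43 and 11.40 in double-genotype livers, 11.99, 12.02, 11.74 and 11.62 in Rassf1a-/- livers, 11.79, 11.63, 11.72 and 11.80 in Sav1+/- livers and 11.59, 11.49, 11.67 and 11.78 in wild-type livers. Its double-genotype arrays lay below all Rassf1a-/- arrays and overlapped wild type. Rps6, the substrate of the S6 kinases, differed little, with 13.35, 13.05, 13.27 and 13.36 in double-genotype livers, 13.38, 13.46, 13.49 and 13.32 in Rassf1a-/- livers, 13.51, 13.25, 13.66 and 13.50 in Sav1+/- livers and 13.39, 13.39, 13.44 and 13.23 in wild-type livers, overlapping throughout.

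Of the paralogs, Rps27l, a p53-induced relative of Rps27, had 12.56, 12.09, 12.55 and 12.47 in double-genotype livers, 12.73, 13.03, 12.91 and 12.87 in Rassf1a-/- livers and 12.72, 12.88, 12.90 and 12.73 in wild-type livers, and the double-genotype arrays lay below both. The X-linked Rps4x had 12.26, 12.16, 12.25 and 12.21 in double-genotype livers, 12.45, 12.49, 12.23 and 12.46 in Rassf1a-/- livers and 12.23, 12.10, 12.16 and 12.40 in wild-type livers, which overlap. Rpl10l, a paralog of Rpl10 known from the testis, was at -0.21 between double-genotype and Rassf1a-/- livers, beside -0.22 for Rpl10. Rps4l, a transcribed pseudogene in RefSeq, ran from 7.40 to 8.97 in double-genotype livers, 7.40 to 8.80 in Rassf1a-/- livers, 6.99 to 8.51 in Sav1+/- livers and 7.54 to 8.40 in wild-type livers. Leaving out Rpl10l, Rpl39l and Rps4l, all 54 others were lower in double-genotype than in Rassf1a-/- livers. That follows from leaving out Rpl39l, the only positive member.

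**Figure D5:**
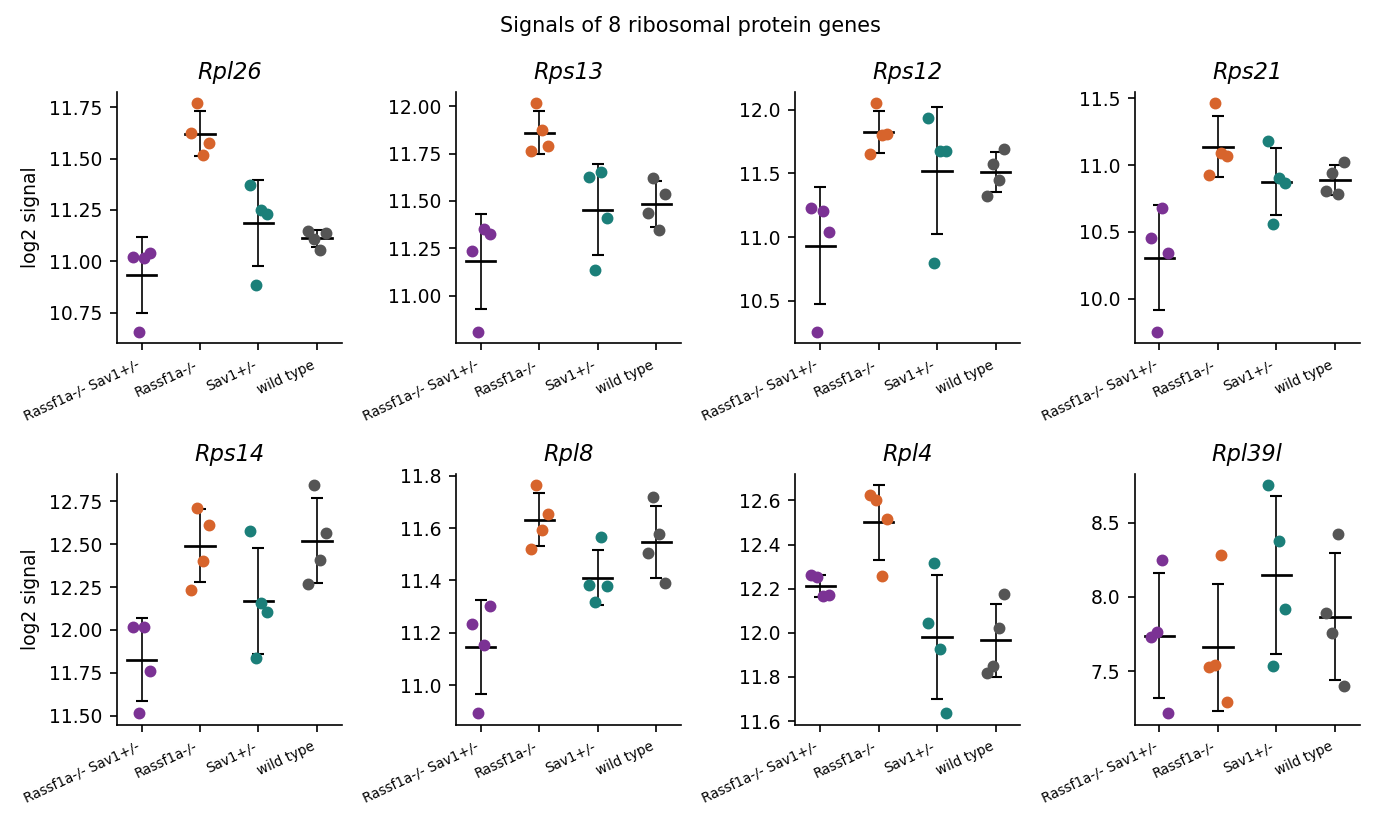
Log2 signal of 8 members on each array (points), with the mean and SD of 4 arrays, by genotype. Rpl26 and Rps13 stand high in Rassf1a-/- livers, Rps12, Rps21, Rps14 and Rpl8 low in double-genotype livers, Rpl4 high in both genotypes without Rassf1a, and Rpl39l overlaps throughout. Axes do not start at 0.

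Within genotypes, too, the members varied together. After the genotype means were taken off, the mean pairwise correlation of the 57 over 16 arrays was 0.49, against 0.04 for all genes, 0.20 for mitochondrial ribosomal proteins and 0.27 for proteasome subunits. These values share arrays and so every array-wide difference, and the low arrays named above are among the 16. Genes that move in opposite directions cancel in a mean correlation, so 0.04 does not show that all genes lack shared variation. The first principal component held 58.0% of the residual variance of the members and 39.4% of that of all genes. The members' median residual SD was 0.18, against 0.26 for all genes. Rps19, mutated in human Diamond-Blackfan anaemia, Rps12 and Rps18 followed the mean of the others most closely (r = 0.97 each), and 31 members exceeded 0.8. Rps4l (-0.49), Rpl4 (-0.39) and Rps4x (-0.04) followed it least, and 6 members were under 0.2. The smallest residual SDs were those of Rplp0 (0.08), Rpl10 (0.10) and Rplp1 (0.11), the largest those of Rps4l (0.61), Rpl39l (0.45) and Rps12 (0.36).

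Members with and without a tract near a listed start had similar medians. Listed starts may be inexact, and a run wholly before the true start is not in the mRNA. The split therefore does not separate TOP mRNAs from others, and a part of the TOP tract was not tested. The 22 measured members with one had a median of -0.39 between double-genotype and Rassf1a-/- livers, and the 23 without one -0.42. Against wild type, Rassf1a-/- livers gave 0.19 and 0.18 in the same order. Both Rpl26 and Rps13, whose windows above carry no capitals, were among those with the widest differences, as was Rps12, whose tract ends its window, while Rpl4 carries one before its annotated start.

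Most probe sets gave the same direction. Of 213 measured probe sets that name 1 ribosomal protein gene, 212 were lower in double-genotype than in Rassf1a-/- livers. Of the same 213, 208 were higher in Rassf1a-/- than in wild-type livers, and 207 lower in double-genotype than in wild-type livers. In all 39 members with several measured probe sets, every probe set was lower in double-genotype than in Rassf1a-/- livers. Some probe sets of a gene gave identical values, as for Rpl10 and Rpl10a. Probe sets of a gene can read the same mRNA, so these are not counts of separate measurements. Of 232 measured probe sets that name a ribosomal protein gene and others, 230 were lower in double-genotype than in Rassf1a-/- livers. Against wild type, 198 of the 232 were lower in double-genotype livers and 34 higher. Another 16 ribosomal protein genes were found only on probe sets that name several genes, and 15 of these were measured. All 15 were lower in double-genotype livers than in Rassf1a-/- and in wild-type livers, and higher in Rassf1a-/- than in wild-type livers. Among them was Rpl11, the partner of Rpl5 in the 5S particle, at -0.63, 0.15 and -0.48 for double genotype against Rassf1a-/-, Rassf1a-/- against wild type, and double genotype against wild type. Fau, Rps3a1 and Rpl7l1, which the symbol rule misses, were at -0.32, -0.58 and -0.11 in the first of these, none of them called.

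Genes that work beside the cytosolic ribosome differed unequally. Mitochondrial ribosomal proteins build the ribosome that translates the mitochondrial genome. Of 77, 71 were lower in double-genotype than in Rassf1a-/- livers with a median of -0.34, where 39.7% of all genes were lower. At an unadjusted p under 0.05, 41 of the 77 were lower, against 8.22% of all genes, and none was called. Against wild type 60 were lower with a median of -0.18, where 41.3% of all genes were lower. Mrpl12, of the large mitochondrial subunit, fell by 0.74 (SE 0.14, limma adjusted p = 0.0163). It was the single call of the 77, where 0.821% of all genes were called. With 1 Sav1 copy, averaged, all 77 were lower (median -0.23), against 46.0% of all genes. Of 37 measured proteasome subunits, 31 were lower in double-genotype than in Rassf1a-/- livers (median -0.17), none called. In Rassf1a-/- livers 35 were above wild type (median 0.16), against 48.3% of all genes. Psmd14, the deubiquitinase of the proteasome lid, rose by 0.71 (SE 0.15, limma adjusted p = 0.0268). It was the single call of the 37, where 0.7% of all genes were called.

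Of 12 translation factors and other mRNAs of the TOP class, 11 were lower in double-genotype than in Rassf1a-/- livers (median -0.15), with Eif3h, an initiation factor subunit, at -0.48 (adjusted p = 0.0936) and Eef1b2, an elongation factor subunit, at -0.54 (0.122). Of 72 ribosome biogenesis genes, 51 were higher and 21 lower (median 0.11), where 60.3% of all genes were higher. All 5 of the 72 with an unadjusted p under 0.05 were lower, a share no larger than the 8.22% of all genes. Among them was Polr1d, a subunit shared by RNA polymerases I and III, at -0.57 (adjusted p = 0.0936). Genes of mTORC1 and S6 kinase signalling were divided, 7 higher and 7 lower (median 0.042). None of these 3 lists had a call in this comparison.

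No marker of another liver cell type was called between double-genotype and Rassf1a-/- livers. As only 0.0076% of all genes were called there, the lack of a call says little about cell types. The lists did not all lie one way. All 8 Kupffer cell and macrophage markers were higher in double-genotype than in Rassf1a-/- livers, with a median of 0.57, and their mean signal ran from 9.74 to 10.63 in double-genotype, 9.07 to 9.96 in Rassf1a-/-, 9.44 to 10.86 in Sav1+/- and 9.35 to 10.29 in wild-type livers. Of 5 B cell and plasma cell markers 3 were measured, all higher (median 0.83), of 5 T cell markers 3, all higher (median 0.35), and both erythroid markers were higher (median 0.60). Endothelial markers were 4 higher and 1 lower (median 0.38), stellate markers 3 higher and 2 lower (0.081), and neutrophil markers 1 higher and 1 lower (-0.32, with 2 of 5 measured). The 1 measured NK cell marker was at 0.24, the 1 measured cholangiocyte marker at -0.080, and the 5 hepatocyte markers had a median of 0.042. Genes of the circadian clock differed with Rassf1a. Of 13 measured, 3 were called higher and 6 lower in double-genotype than in wild-type livers, where 0.821% of all genes were called. In Rassf1a-/- livers 2 were called higher and 6 lower than in wild type, where 0.7% of all genes were called. By sign alone, 4 were higher and 9 lower in each. None was called between double-genotype and Rassf1a-/- livers. The part of these lists in the ribosomal protein differences was not tested. When the 5 arrays with high Y-linked signal were left out, the members' median was -0.30 between double-genotype and Rassf1a-/- livers (56 of 57 lower, 10 at an unadjusted p under 0.05, against 40 with all arrays), -0.15 between double-genotype and wild-type livers (51 lower, 1 at that level, against 18 with all arrays) and 0.13 between Rassf1a-/- and wild-type livers (53 higher, 2 at that level). Fewer arrays also leave the test less able to find a difference in any gene, so these counts do not compare directly. Centring each array on its median gave medians of -0.43, -0.28 and 0.15 in the same order.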

How the data were processed

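The authors deposited log2 signals per probe set. The submitters' processing notes name Affymetrix Expression Console, and the sources used here give no version, summarisation or normalization for it. Of 35556 probe sets, 21789 named 1 gene in the platform annotation. Array medians lay between 7.20 and 7.51. Precision is limited by having 4 arrays a genotype. Of 19938 genes, 13152 exceeded the 40th percentile of at least 4 arrays. limma 3.58.1 in R 4.3.3 fitted 4 genotype means (12 residual degrees of freedom) with eBayes, and p-values were adjusted over all 13152 genes by the Benjamini-Hochberg method. Named members were those of smallest p in each comparison, of largest and smallest residual SD and correlation, and a fixed group of stalk, signalling and paralog genes. The fits were tested on simulated data. Members and lists were chosen with earlier results of these data known. Alternatives covered the filter, the probe set, scaling, variance model, array weights, Y-linked signal, the groups fitted and each array. Leaving out Sav1+/- replicate 2 and double-genotype replicate 2 together was chosen after seeing the data.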

Additional observations from a re-analysis of the deposited data

Results flagged for a closer look

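Of 140 groups of 4 arrays of the named members, 9 had 1 array farther from the others than the limit for an outlying value (Dixon's gap over range). Chance gives about 1 in 20, so this count is close to chance. The members vary together on an array, so the groups are not independent of each other. Of the 9 outlying arrays, 4 were Sav1+/- replicate 2, all low. They were Rpl27a at 11.6 (other Sav1+/- arrays 12.4 to 12.5), Rps15a at 10.52 (others 10.95 to 10.98), Rpl21 at 12.7 (12.9 to 13.0) and Rpl28 at 12.3 (12.9 to 13.0). Sav1+/- replicate 1 was low for Rps4l at 6.99 (8.27 to 8.51) and high for Rpsa at 12.1 (11.6). Double-genotype replicate 2 was low for Rpl26 at 10.66 (others 11.01 to 11.04). Rassf1a-/- replicate 2 was high for Rpl6 at 11.8 (11.4), and Rassf1a-/- replicate 3 was low for Rps4x at 12.2 (12.5).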

How the results depend on the processing

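No paired analysis was possible because replicate numbers are absent from the labels, and nothing links an array of one genotype to an array of another. The medians of the members kept their sign in every setting for 6 comparisons, as in 24 of 26 settings for Sav1+/- against wild type and 21 of 25 for the averaged Rassf1a difference. Leaving out the arrays with high Y-linked signal moved 2 medians, to -0.077 (double genotype against Sav1+/-) and -0.19 (interaction). The number of members called moved from 0. With a trended, robust variance it was 2, 1, 9 and 1 for Rassf1a-/- against wild type, double genotype against wild type, double genotype against Rassf1a-/- and the averaged Rassf1a difference, where 1.02%, 1.25%, 0.517% and 3.03% of all genes were called. With array weights it was 2, 3, 34 and 1 in the same order, and 10 for the averaged Sav1 difference, where 6.83%, 9.36%, 15%, 6.08% and 11.5% of all genes were called. The stricter filter gave 4 for double genotype against Rassf1a-/- and 1 for the averaged Rassf1a difference (0.623% and 5.03% of all genes). Fitting only the groups compared gave 1 for Rassf1a-/- against wild type (1.44%). Leaving out both low arrays gave 1 there and 1 for the averaged Rassf1a difference (0.943% and 2.68%). Leaving out 1 array gave 0 to 1 for both, for double genotype against wild type and for the averaged Sav1 difference, 0 to 2 for double genotype against Sav1+/-, and 0 to 10 for double genotype against Rassf1a-/-. The 10 and the 2 came without Sav1+/- replicate 2 (0.935% and 3.64% of all genes), and 4 without double-genotype replicate 4 (1.59%). The causes were not tested. Signs turned for 7 single values of size up to 0.23. Rpl28 against wild type in the double genotype was -0.060 with centred arrays, -0.043 with the Y-linked covariate and -0.039 to 0.052 without 1 array. Rpl39l between double-genotype and Rassf1a-/- livers was -0.0088 with quantile normalization and -0.090 to 0.29 without 1 array. Rpl4 against Sav1+/- livers in the double genotype was -0.0097 without the high Y-linked arrays. Rpl24, averaged over Rassf1a states, was -0.021 with the mean of its probe sets, -0.032 with the covariate, -0.016 without those arrays, and -0.022 to 0.11 without 1 array. Rpl28 in the interaction was -0.095 with array weights, -0.067 without both low arrays and -0.12 to 0.11 without 1 array. In Rassf1a-/- against wild type, leaving out 1 array gave -0.12 to 0.076 for Rps14 and -0.080 to 0.057 for Rpl22. A probe set near the filter level, such as those of Rpl39l and Rps4l, gives little signal over background to order genotypes by.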
